A study of Mus musculus with 17 samples.

Results

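The genes described here are the machinery of MHC class I antigen presentation, 32 genes chosen by name from the 54532 genes counted in mouse RNA sequencing libraries. They are 14 heavy-chain genes of the H2 complex, the light chain B2m, the immunoproteasome subunits Psmb8, Psmb9 and Psmb10 with the proteasome activator subunits Psme1 and Psme2, the peptide transporter and editing genes Tap1, Tap2, Tapbp and Tapbpl, the trimming peptidases Erap1 and Lnpep, the chaperones Calr, Canx and Pdia3, the translocon gene Sec61a1 and the vesicle-fusion gene Sec22b, and the transactivator Nlrc5. All 32 were present in both count tables. 30 passed the low-count filter in the tumor CD45 set and 29 in the cell line. H2-Q1 and H2-Q2 were tested in neither set, and H2-M2 only in the CD45 set. 20 of the 32 genes lie on chromosome 17, which holds the mouse MHC.

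MHC class I molecules show peptides from the inside of a cell to CD8+ T cells. Proteins are cut by the proteasome, whose catalytic subunits can be exchanged for the immunoproteasome subunits, and the peptides are pumped into the endoplasmic reticulum by the TAP transporter. There a heavy chain pairs with B2m, folds with the help of calnexin, calreticulin and the disulfide isomerase Pdia3, and receives a peptide at tapasin. Dendritic cells also load class I molecules with peptides of material they have taken up, which is called cross-presentation. NLRC5 is a transactivator that acts on class I promoters, and interferons raise most of these genes in many cell types.

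The study asked how versikine, a fragment that proteases cut from the matrix proteoglycan versican, shapes tumour immunity. The labels call it Vkine and its comparison arm EV, a common abbreviation of empty vector. In the first set, CD45+ cells (leukocytes) were labelled as tumor Vkine (n = 3) or tumor EV (n = 3), although their source field names bone marrow. Their titles carry unexplained codes, L1, L2 and L3 in Vkine and R1, R2 and R1L1 in EV. The R code occurs only in EV titles, so whatever it stands for cannot be told apart from the arm. Whether EV R1 and EV R1L1 share material is not given. The second set was MutuDC, a mouse conventional dendritic cell line, as Vkine with LPS (n = 3), EV with LPS (n = 3), Vkine (n = 3) and EV (n = 2), where LPS, bacterial lipopolysaccharide, is an activator of dendritic cells. The sources used here do not give the way in which Vkine was supplied, the LPS dose and time, or the strain and age of the mice. MutuDC is 1 cell line, and the labels do not say that replicates were separate animals or cultures, so the p-values below reflect only the variation among these samples, which could be technical.

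Library totals were 13814620 to 18125269 counts in the CD45 set and 15938185 to 21263321 in MutuDC. MutuDC libraries held transcripts of the cDC1 genes Clec9a, Xcr1, Batf3, Irf8 and Cd8a in every sample. Of the T cell and neutrophil markers, Cd3e, S100a8, S100a9, Ly6g and Csf3r had 0 counts, while others such as Cd4 and Mmp9 were present. Mitochondrial genes took 0.936% to 1.96% of MutuDC counts. In the CD45 set they took 10.56% of Vkine replicate 1 and 2.47% to 5.56% of the other libraries, and EV replicate 2 lay far from the rest along principal component 1 (35.7% of the variance). Summed CPM (counts scaled to library size with TMM factors) over 9 cDC1 markers was 5759 to 5847 in Vkine MutuDC and 7152 to 7182 in EV MutuDC, and with LPS 6703 to 6845 in Vkine and 6603 to 6916 in EV. The 8 neutrophil markers summed to 3176 to 3608 in Vkine and 2010 to 2051 in EV without LPS, and with LPS to 2156 to 2245 in Vkine and 2022 to 2053 in EV. In each MutuDC sample 5 to 7 of these 8 had 0 counts, and only Mmp9 was tested. Mmp9 was called higher with Vkine without LPS (log2 fold change 0.75, edgeR adjusted p = 5.7e-07). The 7 macrophage markers summed to 74.8 to 83.7 in Vkine and 153 to 163 in EV without LPS. With LPS they summed to 231 to 258 in Vkine and 98.0 to 111 in EV. Without LPS, Csf1r was called lower with Vkine (log2 fold change -2.69). Adgre1 (1.47), C1qa (2.18), C1qb (1.62) and C1qc (1.97) were called higher, and Mertk and Trem2 were not tested. The part of these differences in the results was not tested. Where a change is named below, the gene passed edgeR's quasi-likelihood test at an adjusted p (Benjamini-Hochberg, over every gene tested) under 0.05.

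In MutuDC without LPS, Vkine raised heavy chains, the light chain and Nlrc5, while the genes that carry and fit the peptide fell. 8 of the 29 genes tested rose (16.9% of all 13357 genes did), 7 fell (18.3% of all genes) and 14 passed in neither direction. The share that fell was near that of all genes. The median log2 fold change of the 29 was 0.03, against 0.01 over all genes tested. In 8609 of all 13357 genes tested the Vkine and EV samples did not overlap, in either direction, so a lack of overlap is usual here. Every Vkine sample lay above every EV sample in 11 members and below in 10. The calls divided by role. All 4 H2-Q genes tested, B2m, H2-K1, H2-M3 and Nlrc5 rose, and all 4 genes of peptide transport and editing, Psmb8, Calr and Sec61a1 fell.

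B2m encodes the light chain that all classical class I molecules share (chromosome 2, 122147686 to 122153083, plus strand, GRCm38). It stood at 429, 441 and 449.7 CPM in Vkine cells, against 263 and 275 CPM in EV cells. The 3 Vkine values lay well above both EV values, at a log2 fold change 0.71 ± 0.08 (SE), edgeR adjusted p = 7.8e-06. H2-K1, 1 of the 2 classical heavy chains measured here, had 660.5, 641 and 581 CPM in Vkine cells and 426 and 417 CPM in EV cells, again without overlap (log2 fold change 0.57 ± 0.09 (SE), edgeR adjusted p = 0.00023). H2-D1, the other classical heavy chain, had 472, 442 and 398 CPM in Vkine cells and 402 and 418 CPM in EV cells. Its groups overlapped and it did not pass the test (log2 fold change 0.09 ± 0.09 (SE), edgeR adjusted p = 0.47).

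The H2-Q genes encode nonclassical heavy chains, and Q6 and Q7 are known as the source of Qa-2 antigen. H2-Q7 (chromosome 17, 35439155 to 35443773, plus strand) had 39.6, 33.1 and 33.6 CPM in Vkine cells against 14.7 and 13.3 CPM in EV cells, a 2.53-fold difference (log2 fold change 1.34 ± 0.12 (SE), edgeR adjusted p = 4.4e-07). H2-Q6 had 69.2, 65.0 and 70.7 CPM in Vkine cells against 26.3 and 29.8 CPM in EV cells (log2 fold change 1.28 ± 0.09 (SE), edgeR adjusted p = 2.6e-08). For both genes every Vkine value lay far above both EV values. H2-Q4 had 62.9, 61.1 and 68.1 CPM in Vkine cells and 32.9 and 30.7 CPM in EV cells (log2 fold change 1.01 ± 0.12 (SE), edgeR adjusted p = 6.7e-06). H2-Q10, which in mice is known as a secreted class I molecule of the liver, was scarce: 61, 45 and 62 counts in Vkine cells and 2 and 2 counts in EV cells. The ratio of the summed rates was 27.3, with a 95% interval of 10.46 to 101 that covers counting error only, and the gene passed the test (edgeR adjusted p = 5.6e-06).

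Nlrc5 rose as well. It had 55.3, 57.2 and 63.7 CPM in Vkine cells against 29.7 and 27.5 CPM in EV cells, without overlap (log2 fold change 1.03 ± 0.10 (SE), edgeR adjusted p = 1.9e-06). H2-M3, which presents formylated peptides, had 26.4, 24.2 and 24.02 CPM in Vkine cells and 19.5 and 18.0 CPM in EV cells (log2 fold change 0.41 ± 0.10 (SE), edgeR adjusted p = 0.0042). Its call was lost without EV replicate 2, where the log2 fold change was 0.37 and the edgeR adjusted p 0.052. The T-region genes H2-T10, H2-T22, H2-T23 and H2-T24 did not pass, with log2 fold changes from -0.00 to 0.41. H2-T10 came nearest (edgeR adjusted p = 0.051) and its groups did not overlap, with 9.73, 10.24 and 9.08 CPM in Vkine cells and 7.05 and 7.55 CPM in EV cells.

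**Figure D1:**
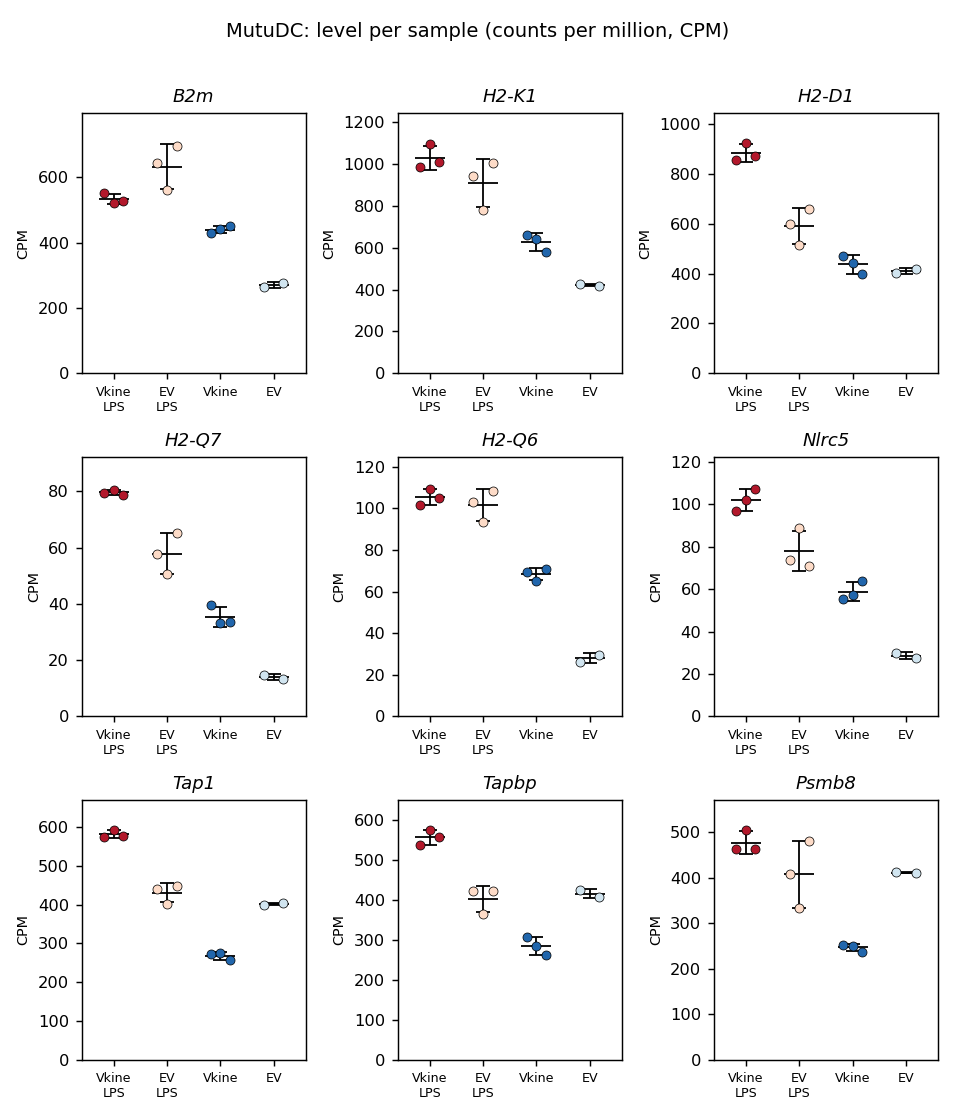
Level of 9 class I presentation genes in each MutuDC sample, in CPM (vertical axis, from 0), by group (horizontal axis); points are samples, the long bar is the mean and the whiskers are 1 SD. Without LPS, B2m, H2-K1, H2-Q7, H2-Q6 and Nlrc5 lie higher in Vkine than in EV while Tap1, Tapbp and Psmb8 lie lower, and with LPS H2-D1, H2-Q7, Nlrc5, Tap1 and Tapbp lie higher in Vkine.

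The genes that bring peptides to these heavy chains went the other way. Tap1, a subunit of the peptide transporter (chromosome 17, 34187553 to 34197225, plus strand), had 273, 276 and 256 CPM in Vkine cells and 399.6 and 403 CPM in EV cells, and fell (log2 fold change -0.58 ± 0.07 (SE), edgeR adjusted p = 7e-06). Tap2, the other subunit, had 137, 137 and 131 CPM in Vkine cells and 190.5 and 192 CPM in EV cells (log2 fold change -0.50 ± 0.09 (SE), edgeR adjusted p = 0.00029). Neither gene's groups overlapped. Tapbp encodes tapasin, which holds empty heavy chains at the transporter, and it had 308, 285 and 263 CPM in Vkine cells and 424 and 407 CPM in EV cells (log2 fold change -0.54 ± 0.08 (SE), edgeR adjusted p = 8.5e-05). Tapbpl encodes the tapasin-related peptide editor TAPBPR and fell by a similar size, with 42.3, 41.8 and 40.9 CPM in Vkine cells and 59.4 and 54.0 CPM in EV cells (log2 fold change -0.44 ± 0.08 (SE), edgeR adjusted p = 0.00031).

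Psmb8, the immunoproteasome subunit LMP7, had the largest fall of the 29 genes. It had 253, 250.0 and 238 CPM in Vkine cells against 412 and 411 CPM in EV cells (log2 fold change -0.74 ± 0.11 (SE), edgeR adjusted p = 6.5e-05). Psmb9 and Psmb10, the other catalytic subunits, lay lower in every Vkine sample but did not pass, with log2 fold changes of -0.23 ± 0.09 and -0.31 ± 0.12 (edgeR adjusted p = 0.067 and 0.063). The activator subunits Psme1 and Psme2 did not pass either, at 0.20 and 0.00. Among the chaperones Calr fell, with 1788, 1757 and 1716 CPM in Vkine cells and 2416 and 2333 CPM in EV cells (log2 fold change -0.44 ± 0.08 (SE), edgeR adjusted p = 0.00047), while Canx (0.03) and Pdia3 (-0.06) showed no change that passed. Sec61a1, the channel of protein entry into the endoplasmic reticulum, had 203, 205 and 203 CPM in Vkine cells and 250.0 and 253 CPM in EV cells (log2 fold change -0.30 ± 0.07 (SE), edgeR adjusted p = 0.0024). Erap1 (-0.09), Lnpep (0.18) and Sec22b (-0.05) did not pass, in this or any other MutuDC comparison.

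The balance of a heavy chain and its transporter was read as a ratio. H2-K1 over Tap1, as a ratio of deposited FPKM values (fragments per unit of gene length and library size), averaged 4.93 ± 0.160 in Vkine cells (SD, n = 3) and 2.21 ± 0.0468 in EV cells (SD, n = 2). H2-K1 over B2m was 1.096 ± 0.0962 in Vkine cells and 1.202 ± 0.0550 in EV cells, and there the groups overlapped. With LPS H2-K1 over Tap1 was lower in every Vkine sample, at 3.74 ± 0.143 in Vkine cells and 4.45 ± 0.328 in EV cells, and H2-K1 over B2m was higher in every Vkine sample, at 1.49 ± 0.117 in Vkine cells and 1.102 ± 0.0269 in EV cells (SD, n = 3 each). In tumor CD45 samples H2-K1 over Tap1 was 21.9 ± 3.12 in Vkine and 27.2 ± 2.37 in EV (SD, n = 3 each), without overlap. These ratios were not tested. The MutuDC FPKM use a gene length that the sources do not define, so the ratios serve to compare samples, not genes.

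The promoters of these genes were read from RefSeq (build GRCm38.p6, 250 bases before to 50 after the annotated start). 25 of the 32 genes had an entry, and H2-Q1, H2-T10, H2-T24, Tap2, Tapbpl, Sec61a1 and Nlrc5 had none. Letters were searched on both strands. They were GAAA and GAAA with 2 bases between them (ISRE-type, an interferon response motif), AANNGAAA (IRF-type, which lies within every ISRE-type match), TTCNNNGAA (GAS), and GGG and TCCC with 3 bases between them (kappaB-type, for NF-kB). The IRF-type letters were found in 16 of the 25 genes and in 23.9% of all 32851 promoters. The kappaB-type letters were found in 6 genes (5.55% of all promoters), the ISRE-type in 5 (3.44%) and GAS in 2 (8.3%). A match describes the letters only.

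In the promoters of H2-K1, H2-D1, H2-Q4, H2-Q6 and H2-Q7 a kappaB-type match stood close before an IRF-type match. These stretches are shown, with those of H2-Q10 and H2-M3, because 6 of the 7 genes rose with Vkine without LPS. Capitals mark the kappaB-type run and then the IRF-type match, each read 5′ to 3′ on the strand of the gene.
H2-K1 (chr17:34000420-34000468, minus strand): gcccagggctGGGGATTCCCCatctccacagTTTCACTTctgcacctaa
H2-D1 (chr17:35262913-35262961, plus strand): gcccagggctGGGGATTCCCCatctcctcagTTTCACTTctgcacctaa
H2-Q4 (chr17:35379434-35379481, plus strand): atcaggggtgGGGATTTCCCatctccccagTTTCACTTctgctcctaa
H2-Q6 (chr17:35424667-35424715, plus strand): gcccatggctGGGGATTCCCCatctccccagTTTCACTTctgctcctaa
H2-Q7 (chr17:35439012-35439059, plus strand): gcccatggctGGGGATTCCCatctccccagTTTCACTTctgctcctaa
H2-Q10 (chr17:35469903-35469951, plus strand): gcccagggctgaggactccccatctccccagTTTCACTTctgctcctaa
H2-M3 (chr17:37270102-37270150, plus strand): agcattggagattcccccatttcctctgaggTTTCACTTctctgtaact
The IRF-type letters were the same in all 7 promoters. From the first base of the kappaB-type run to the first base of the IRF-type match there were 21 bases in H2-K1, H2-D1 and H2-Q6 and 20 in H2-Q4 and H2-Q7. H2-Q10 and H2-M3 had no kappaB-type match in this window. H2-D1 was the 1 gene of the 7 that did not pass in that comparison.

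The ISRE-type letters were found in B2m, H2-T22, H2-T23, Psme1 and Erap1. They are shown for the light chain and the T-region genes, with capitals for the match, because B2m rose with Vkine and the T-region genes did not pass.
B2m (chr2:122147538-122147567, plus strand): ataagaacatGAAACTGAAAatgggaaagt
H2-T22 (chr17:36042914-36042943, minus strand): attggcttagTTTCACTTTCgaatccccaa
H2-T23 (chr17:36032806-36032835, minus strand): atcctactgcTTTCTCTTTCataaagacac
In B2m the match stood at -139 to -130 relative to the annotated start.

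Tap1 and Psmb9 are neighbours that are read in opposite directions. The 225 bases between their RefSeq starts are shown because Tap1 fell with Vkine without LPS. Psmb9 was lower in every Vkine sample too but did not pass (log2 fold change -0.23, edgeR adjusted p = 0.067), and some alternatives called it lower. The difference between Tap1 and Psmb9 was not tested. None of the 4 motifs above was found in the window of either gene. Capitals mark the GC-box letters GGGCGG on the other strand, which 35.7% of all promoters held.
Tap1-Psmb9 (chr17:34187331-34187555, strand of Tap1): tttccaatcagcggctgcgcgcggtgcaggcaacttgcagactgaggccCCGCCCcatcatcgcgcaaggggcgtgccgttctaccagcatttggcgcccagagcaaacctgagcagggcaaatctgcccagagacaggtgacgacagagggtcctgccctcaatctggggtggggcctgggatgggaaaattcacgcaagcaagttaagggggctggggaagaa
The annotated genes themselves overlap by 212 bases on opposite strands, and whether counting used the strand is not given in the sources used here. Reads in that overlap cannot be told apart, and 4.19% of the 50-base stretches of Psmb9 transcripts also occurred in another gene, namely Tap1.

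**Figure D2:**
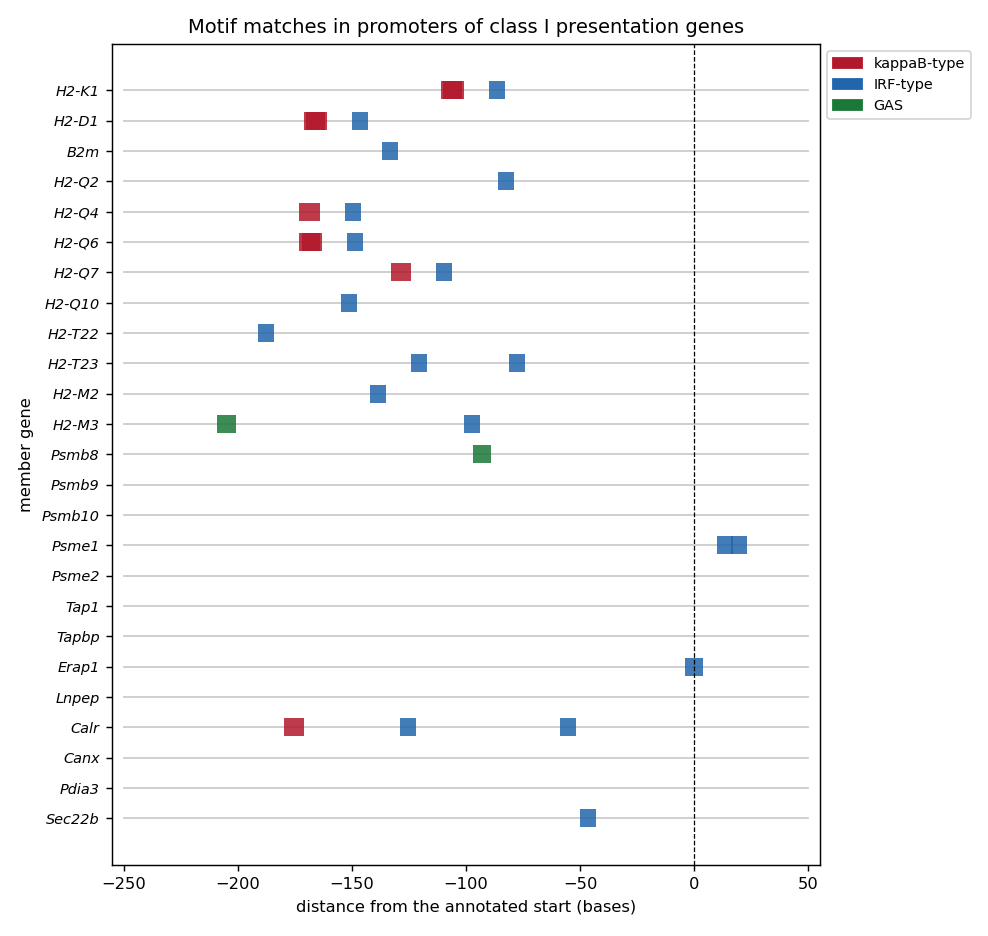
Matches to kappaB-type, IRF-type and GAS letters in the promoters of the 25 class I presentation genes with a RefSeq entry (rows); the horizontal axis is the distance from the annotated start in bases, and the dashed line marks the start. The kappaB-type and IRF-type matches stand side by side in H2-K1, H2-D1, H2-Q4, H2-Q6 and H2-Q7. Tap1, Tapbp, Psmb9, Psmb10, Psme2, Canx, Lnpep and Pdia3 hold no match.

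With LPS in both arms, the effect of Vkine on MutuDC had another shape. 8 of the 29 genes rose (22.8% of all genes tested) and 7 fell (19.2%), with a median log2 fold change of 0.09 against 0.01 over all genes. Both counts were near the shares of all genes. Of the 4 genes of peptide transport and editing, Tap1, Tapbp and Tapbpl rose, together with H2-D1, H2-Q7, Nlrc5, Psmb10 and Sec61a1. B2m, H2-Q10, H2-T10, H2-M3, Psme1, Canx and Pdia3 fell.

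Tap1 had 573, 592 and 578 CPM in Vkine cells with LPS against 441, 402 and 448 CPM in EV cells with LPS (log2 fold change 0.43 ± 0.06 (SE), edgeR adjusted p = 4e-05). Tapbp had 537, 574 and 558 CPM in Vkine cells with LPS and 422, 364 and 421 CPM in EV cells with LPS (log2 fold change 0.47 ± 0.07 (SE), edgeR adjusted p = 0.00011). Tapbpl had 86.3, 91.1 and 90.2 CPM in Vkine cells with LPS and 65.1, 62.2 and 69.0 CPM in EV cells with LPS (log2 fold change 0.45 ± 0.07 (SE), edgeR adjusted p = 7.6e-05). All 3 genes were higher in every Vkine sample, where without LPS they were lower in every Vkine sample. With LPS, 6458 of all 13357 genes tested had no overlap between Vkine and EV samples, in either direction. Every Vkine sample with LPS lay above every EV sample with LPS in 8 members and below in 6. Tap2 stood at 213, 228 and 208 CPM in Vkine cells with LPS and 200.5, 169 and 216 CPM in EV cells with LPS, overlapped and did not pass (log2 fold change 0.15 ± 0.08 (SE), edgeR adjusted p = 0.14). Sec61a1 had 224, 220.0 and 231 CPM in Vkine cells with LPS and 175, 197 and 174 CPM in EV cells with LPS (log2 fold change 0.31 ± 0.06 (SE), edgeR adjusted p = 0.00083).

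Psmb10, the immunoproteasome subunit MECL-1, had 189, 207 and 195 CPM in Vkine cells with LPS against 149.8, 109 and 161 CPM in EV cells with LPS (log2 fold change 0.49 ± 0.11 (SE), edgeR adjusted p = 0.0023). Psmb8 (0.23), Psmb9 (0.03) and Psme2 (0.23) did not pass. Psme1 had 220.4, 242 and 236 CPM in Vkine cells with LPS and 274, 237 and 320.4 CPM in EV cells with LPS, with overlapping groups, and was lower (log2 fold change -0.25 ± 0.09 (SE), edgeR adjusted p = 0.026). That call was lost without any 1 of 4 libraries (EV with LPS replicate 1 or 3, Vkine with LPS replicate 1 or 3), with edgeR adjusted p from 0.0578 to 0.119.

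Among the heavy chains, H2-D1 and H2-Q7 rose. H2-D1 had 856, 922 and 873 CPM in Vkine cells with LPS against 598, 514 and 658 CPM in EV cells with LPS (log2 fold change 0.58 ± 0.08 (SE), edgeR adjusted p = 5.3e-05). H2-K1 had 988, 1097 and 1010.3 CPM in Vkine cells with LPS and 941, 782 and 1008 CPM in EV cells with LPS and did not pass (log2 fold change 0.18 ± 0.08 (SE), edgeR adjusted p = 0.094). H2-K1 thus passed without LPS and H2-D1 with it. H2-Q7 had 79.5, 80.6 and 78.7 CPM in Vkine cells with LPS and 57.7, 50.7 and 65.3 CPM in EV cells with LPS (log2 fold change 0.46 ± 0.09 (SE), edgeR adjusted p = 0.00082). H2-Q6, with 102, 109 and 105 CPM in Vkine cells with LPS and 103, 93.4 and 108 CPM in EV cells with LPS, overlapped and did not pass (log2 fold change 0.05 ± 0.07 (SE), edgeR adjusted p = 0.6), and neither did H2-Q4 (0.09). Nlrc5 stayed higher, with 96.7, 102 and 107 CPM in Vkine cells with LPS and 73.9, 89.0 and 71.1 CPM in EV cells with LPS (log2 fold change 0.39 ± 0.09 (SE), edgeR adjusted p = 0.0019).

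B2m was lower with Vkine in the presence of LPS, with 551, 523 and 527 CPM in Vkine cells and 643, 559.7 and 696 CPM in EV cells (log2 fold change -0.25 ± 0.07 (SE), edgeR adjusted p = 0.012). H2-M3 had 20.4, 21.1 and 21.3 CPM in Vkine cells with LPS and 28.4, 24.53 and 28.4 CPM in EV cells with LPS (log2 fold change -0.37 ± 0.09 (SE), edgeR adjusted p = 0.0027). For both genes every Vkine sample lay below every EV sample. H2-T10, which mouse gamma-delta T cells are known to recognise, had 8.44, 10.36 and 11.1 CPM in Vkine cells with LPS and 11.5, 12.003 and 15.2 CPM in EV cells with LPS (log2 fold change -0.38 ± 0.13 (SE), edgeR adjusted p = 0.029). H2-Q10 had 9, 11 and 12 counts in Vkine cells with LPS and 30, 12 and 25 counts in EV cells with LPS, a ratio of summed rates of 0.450 (95% interval 0.286 to 0.696, counting error only; edgeR adjusted p = 0.022). The H2-T10 call was lost without EV with LPS replicate 3 or Vkine with LPS replicate 1 or 2 (edgeR adjusted p from 0.0539 to 0.141). The H2-Q10 call was lost without EV with LPS replicate 1 or Vkine with LPS replicate 1 (edgeR adjusted p = 0.106 and 0.0849). The remaining T-region genes ranged from -0.15 to 0.13 and did not pass.

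Canx encodes calnexin, which binds newly made heavy chains, and had 633, 603 and 636 CPM in Vkine cells with LPS and 718, 782 and 712 CPM in EV cells with LPS (log2 fold change -0.24 ± 0.06 (SE), edgeR adjusted p = 0.0068). Pdia3, also called ERp57, had 1232, 1179 and 1211 CPM in Vkine cells with LPS and 1500.1, 1351 and 1649.6 CPM in EV cells with LPS (log2 fold change -0.31 ± 0.07 (SE), edgeR adjusted p = 0.0017). Neither gene's groups overlapped. Calr (0.07), Erap1 (0.04), Lnpep (-0.09) and Sec22b (0.10) did not pass. Single libraries set some of these calls. Without EV with LPS replicate 3, 13 genes rose in place of 8, and the 5 added were H2-K1 (0.26), Psmb8 (0.36), Psme2 (0.34), Tap2 (0.22) and Calr (0.16), all as log2 fold changes. In the same setting Lnpep was called lower (-0.30). Without Vkine with LPS replicate 1, 4 genes fell in place of 7. Without EV with LPS replicate 2, H2-T22 (-0.27) and H2-T23 (-0.18) were also called lower.

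**Figure D3:**
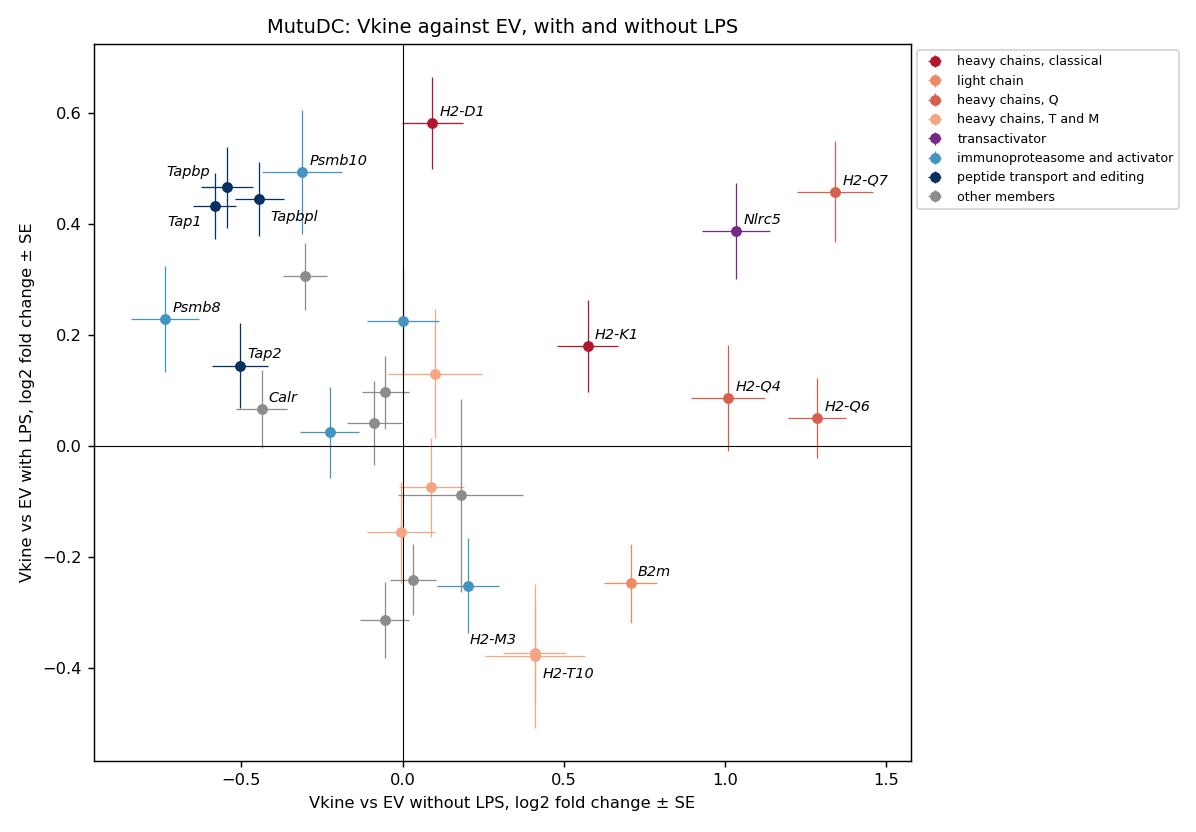
Log2 fold change of Vkine against EV in MutuDC without LPS (horizontal axis) and with LPS (vertical axis), each ± SE, for 28 of the 29 class I presentation genes tested, coloured by role; H2-Q10, at 4.69 and -1.13, lies outside the axes and is not drawn. Tap1, Tapbp, Tapbpl and Psmb10 lie at the upper left, H2-Q7 and Nlrc5 at the upper right and B2m, H2-M3 and H2-T10 at the lower right.

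LPS alone, in EV cells, raised every heavy chain tested and few of the genes that load them. 17 of the 29 genes rose (17.2% of all genes tested) and 1 fell (17.6%), with a median log2 fold change of 0.40 against 0.01 over all genes. All 11 heavy chains tested rose, as did B2m and Nlrc5. The EV samples without LPS are also those of the Vkine comparison above, so these values share samples and are given side by side only.

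B2m stood at 643, 559.7 and 696 CPM in EV cells with LPS and 263 and 275 CPM in EV cells without (log2 fold change 1.23 ± 0.08 (SE), edgeR adjusted p = 2e-08). H2-K1 had 941, 782 and 1008 CPM in EV cells with LPS and 426 and 417 CPM in EV cells without (log2 fold change 1.11 ± 0.10 (SE), edgeR adjusted p = 3.6e-07), and H2-D1 rose less (log2 fold change 0.53 ± 0.09 (SE), edgeR adjusted p = 0.00049). Apart from the scarce H2-Q10, the other H2-Q genes had the largest changes of the 29. H2-Q7 had 57.7, 50.7 and 65.3 CPM in EV cells with LPS and 14.7 and 13.3 CPM without, 4.14-fold higher (log2 fold change 2.05 ± 0.12 (SE), edgeR adjusted p = 3.2e-09), H2-Q6 rose by a log2 fold change of 1.86 ± 0.09 (edgeR adjusted p = 4.2e-10) and H2-Q4 by 1.48 ± 0.12 (edgeR adjusted p = 1.1e-07). H2-Q10 had 30, 12 and 25 counts in EV cells with LPS and 2 and 2 counts without, a ratio of summed rates of 11.5 (95% interval 4.27 to 43.3, counting error only; edgeR adjusted p = 0.00034). Nlrc5 had 73.9, 89.0 and 71.1 CPM in EV cells with LPS and 29.7 and 27.5 CPM without (log2 fold change 1.44 ± 0.11 (SE), edgeR adjusted p = 4.4e-08).

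The T- and M-region genes rose by smaller steps, from 0.40 ± 0.10 for H2-T23, the Qa-1 heavy chain, to 0.84 ± 0.14 for H2-T24 (log2 fold change ± SE), with H2-T10, H2-T22 and H2-M3 between them. The call of H2-T23 was lost without EV replicate 1 (edgeR adjusted p = 0.0528). Psme1 (log2 fold change 0.52 ± 0.10 (SE), edgeR adjusted p = 0.00065) and Psme2 (log2 fold change 0.50 ± 0.11 (SE), edgeR adjusted p = 0.003) rose. The catalytic subunits did not pass: Psmb8 had 409, 333 and 480.4 CPM in EV cells with LPS and 412 and 411 CPM without (-0.01), and Psmb9 and Psmb10 were at 0.25 and -0.06. Nor did Tap1, with 441, 402 and 448 CPM in EV cells with LPS and 399.6 and 403 CPM without (log2 fold change 0.10 ± 0.07 (SE), edgeR adjusted p = 0.27), Tap2 (0.03) or Tapbp (-0.05). Tapbpl (log2 fold change 0.21 ± 0.08 (SE), edgeR adjusted p = 0.044) and Pdia3 (log2 fold change 0.23 ± 0.08 (SE), edgeR adjusted p = 0.031) passed narrowly. The Tapbpl call was lost without any 1 of 9 of the 11 MutuDC libraries (edgeR adjusted p from 0.0547 to 0.331) and stood without Vkine replicate 3 or EV with LPS replicate 2. The Pdia3 call was lost without EV replicate 1 or 2 or EV with LPS replicate 1 or 3 (edgeR adjusted p from 0.0703 to 0.146). Sec61a1 was the 1 gene that fell, with 175, 197 and 174 CPM in EV cells with LPS and 250.0 and 253 CPM without (log2 fold change -0.47 ± 0.07 (SE), edgeR adjusted p = 7.1e-05).

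In Vkine cells LPS raised both sides of the machinery. 19 of the 29 genes rose (27.6% of all genes tested) and 3 fell (24.3%), with a median log2 fold change of 0.50 against 0.01 over all genes. All 4 genes of peptide transport and editing rose. Tap1 had 573, 592 and 578 CPM in Vkine cells with LPS and 273, 276 and 256 CPM in Vkine cells without, 2.17-fold higher (log2 fold change 1.12 ± 0.06 (SE), edgeR adjusted p = 6.9e-10). Tapbpl (log2 fold change 1.10 ± 0.07 (SE), edgeR adjusted p = 3e-09), Tapbp (log2 fold change 0.96 ± 0.07 (SE), edgeR adjusted p = 3.1e-08) and Tap2 (log2 fold change 0.68 ± 0.08 (SE), edgeR adjusted p = 2.7e-06) followed. Psmb8 had 464, 506 and 463 CPM in Vkine cells with LPS and 253, 250.0 and 238 CPM without (log2 fold change 0.95 ± 0.10 (SE), edgeR adjusted p = 8.1e-07). Psmb10 rose by a log2 fold change of 0.74 ± 0.11, Psmb9 by 0.50 ± 0.08 and Psme2 by 0.72 ± 0.10 (edgeR adjusted p = 5.3e-05, 0.00012 and 2.2e-05), whereas Psme1 did not pass (0.06). Calr had 2324, 2443 and 2405 CPM in Vkine cells with LPS and 1788, 1757 and 1716 CPM without (log2 fold change 0.45 ± 0.07 (SE), edgeR adjusted p = 7.6e-05).

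Most heavy chains rose in Vkine cells too. H2-D1 had 856, 922 and 873 CPM in Vkine cells with LPS and 472, 442 and 398 CPM without (log2 fold change 1.02 ± 0.08 (SE), edgeR adjusted p = 8.6e-08). H2-K1 (log2 fold change 0.72 ± 0.08 (SE), edgeR adjusted p = 3.6e-06), H2-Q7 (log2 fold change 1.17 ± 0.09 (SE), edgeR adjusted p = 5.8e-08), H2-Q6 (log2 fold change 0.62 ± 0.07 (SE), edgeR adjusted p = 3.6e-06) and H2-Q4 (log2 fold change 0.55 ± 0.10 (SE), edgeR adjusted p = 0.00018) rose as well. B2m rose by 0.28 ± 0.07 (edgeR adjusted p = 0.0041), with 551, 523 and 527 CPM in Vkine cells with LPS and 429, 441 and 449.7 CPM without. Nlrc5 rose by 0.80 ± 0.09 (edgeR adjusted p = 1.7e-06). H2-T24 (log2 fold change 0.87 ± 0.12 (SE), edgeR adjusted p = 2.1e-05), H2-T22 (log2 fold change 0.33 ± 0.09 (SE), edgeR adjusted p = 0.0068) and H2-T23 (log2 fold change 0.24 ± 0.09 (SE), edgeR adjusted p = 0.035) rose and H2-T10 did not pass (0.04). With limma on log2(FPKM + 1), the calls of B2m, H2-T22 and H2-T23 were lost (limma adjusted p = 0.071, 0.069 and 0.26). They were also lost on log2(FPKM + 0.1).

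3 genes fell with LPS in Vkine cells. H2-Q10 had 9, 11 and 12 counts in Vkine cells with LPS and 61, 45 and 62 counts without, a ratio of summed rates of 0.189 (95% interval 0.125 to 0.277, counting error only; edgeR adjusted p = 2e-05). H2-M3 fell (log2 fold change -0.25 ± 0.09 (SE), edgeR adjusted p = 0.024) and so did Canx (log2 fold change -0.16 ± 0.06 (SE), edgeR adjusted p = 0.045). The H2-M3 call was lost without Vkine replicate 1 or Vkine with LPS replicate 1 or 2 (edgeR adjusted p from 0.0530 to 0.0915). The Canx call was lost without Vkine replicate 2 or 3, EV with LPS replicate 1 or any Vkine replicate with LPS (edgeR adjusted p from 0.0596 to 0.181). The call of H2-T23 above was lost without EV replicate 1 or 2, Vkine replicate 2 or 3 or any Vkine replicate with LPS (edgeR adjusted p from 0.0621 to 0.166). Pdia3 (-0.03), Sec61a1 (0.14), Erap1 (0.08), Lnpep (-0.23) and Sec22b (0.11) did not pass.

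Whether the Vkine effect differed with LPS was tested as an interaction, the Vkine effect with LPS minus that without. 9 of the 29 genes had a positive interaction (25.5% of all genes tested) and 12 a negative one (23.7%). The positive count was near the share of all genes. The median was -0.15, against -0.02 over all genes. All 4 genes of peptide transport and editing were positive, and B2m, all 4 H2-Q genes and Nlrc5 were negative. The positive side was led by Tap1 (log2 fold change 1.02 ± 0.09 (SE), edgeR adjusted p = 2.7e-07), Tapbp (log2 fold change 1.01 ± 0.11 (SE), edgeR adjusted p = 1.9e-06), Psmb8 (log2 fold change 0.97 ± 0.14 (SE), edgeR adjusted p = 4.4e-05) and Tapbpl (log2 fold change 0.89 ± 0.10 (SE), edgeR adjusted p = 3.2e-06). Psmb10 (0.81), Tap2 (0.65), Sec61a1 (0.61), Calr (0.50) and H2-D1 (0.49) completed it.

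On the negative side B2m had an interaction of -0.95 ± 0.11 and H2-Q6 of -1.23 ± 0.11 (log2 ± SE, edgeR adjusted p = 3.4e-06 and 4.1e-07). H2-Q4 (-0.92), H2-Q7 (-0.88), H2-T10 (-0.79), H2-M3 (-0.78), Nlrc5 (-0.65), Psme1 (-0.45) and H2-K1 (-0.39) were also negative, and H2-Q10 reached -5.83, which rests on 4 counts in EV cells. Canx (-0.27) and Pdia3 (-0.26) passed narrowly. Canx was lost without 5 of the 11 libraries, EV replicate 1 or 2, Vkine replicate 2 or 3 and Vkine with LPS replicate 2 (edgeR adjusted p from 0.0501 to 0.0689). Pdia3 was lost without all but 2 of them, Vkine replicate 1 and EV with LPS replicate 2 (edgeR adjusted p from 0.0643 to 0.0997). H2-T22, H2-T23, H2-T24, Psmb9, Psme2, Erap1, Lnpep and Sec22b did not pass.

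Set gene by gene, the calls of Vkine against EV split into a few classes. Nlrc5 and H2-Q7 rose in both settings. Tap1, Tapbp, Tapbpl and Sec61a1 fell without LPS and rose with it. B2m, H2-Q10 and H2-M3 rose without LPS and fell with it. H2-K1, H2-Q4 and H2-Q6 rose and Psmb8, Tap2 and Calr fell only in the absence of LPS, while H2-D1 and Psmb10 rose and H2-T10, Psme1, Canx and Pdia3 fell only in its presence. Their interactions, given above, test the difference, and all of these genes passed that test.

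**Figure D4:**
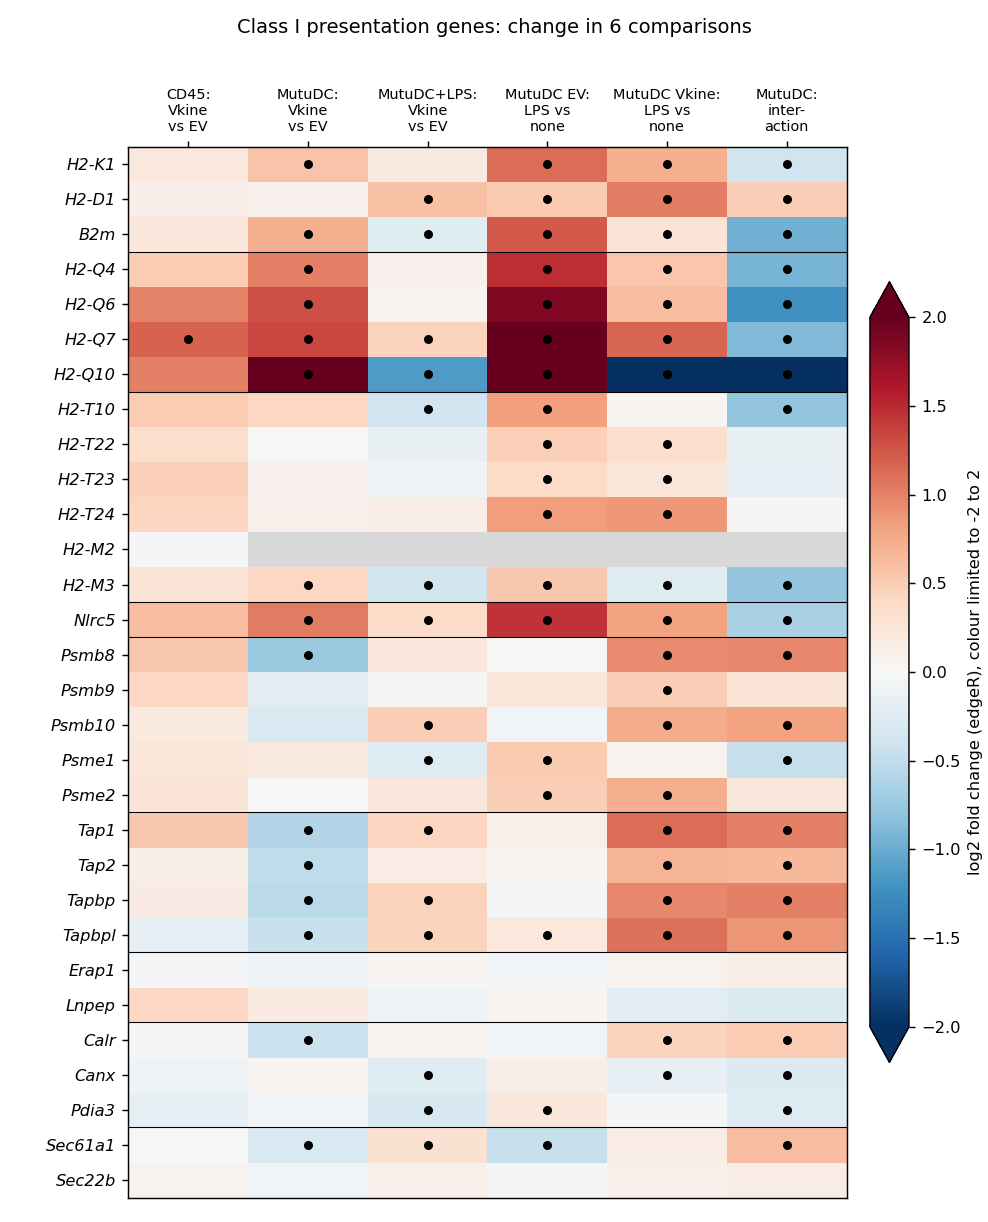
Log2 fold change (colour, limited to -2 to 2) of 30 class I presentation genes in 6 comparisons (columns), grouped by role (horizontal lines); dots mark an edgeR adjusted p under 0.05, and grey marks a gene that was not tested. H2-K1, the Q genes, B2m and Nlrc5 are red and the transport genes blue for Vkine against EV without LPS, and the transport genes are red for LPS in Vkine cells.

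The tumor CD45 samples gave 1 call among the 30 genes tested. H2-Q7 was higher in Vkine (1 member of 3 genes called higher, 0.0214% of all 14006 genes tested), and by edgeR 0 members were lower (0.00714% of all genes), also by DESeq2 and at an unadjusted p under 0.05. At an unadjusted p under 0.05, 9 members were higher, as were 7.02% of all genes tested (5% were lower). The median log2 fold change of the 30 was 0.25, against -0.00 over all genes tested, and 24 were positive. In 12 members every Vkine sample lay above every EV sample and in 0 below, while 18.6% of all genes tested had no overlap in either direction.

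In these mixed samples more cells of a type and more RNA per cell cannot be told apart. edgeR called 0 markers of any cell type list in these samples. The summed levels of some lists are given here, and were not tested. Summed CPM over 8 neutrophil markers was 3311 to 5181 in Vkine and 416 to 1970.2 in EV, with 8 of 8 positive. The 7 T cell markers summed to 28.6 to 43.5 in Vkine and 14.6 to 18.0 in EV (7 of 7 positive), and the 5 dendritic cell markers to 959 to 1340 in Vkine and 398 to 883 in EV (5 of 5 positive). The 7 macrophage markers summed to 4130 to 6365 in Vkine and 6187 to 7622 in EV (1 of 7 positive), with overlap. The 5 fibroblast markers summed to 146 to 241 in Vkine and 90.1 to 181 in EV (5 of 5 positive), also with overlap. None of these 5 lists had a marker at 0 in any sample. The dendritic cell list includes the class II gene H2-Ab1. The 9 cDC1 markers summed to 190 to 212 in Vkine and 168 to 197 in EV, with overlap. The 5 erythroid markers summed to 314 in Vkine replicate 1 and to at most 28.6 in every other sample. The groups also overlapped in each list that is not shown. The part of these cells in the class I values was not tested. Ptprc, the CD45 gene, had 685 to 930.2 CPM in Vkine and 585 to 777 CPM in EV.

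H2-Q7 had 71.6, 68.3 and 83.6 CPM in Vkine samples against 34.7, 29.6 and 34.6 CPM in EV samples, 2.26-fold higher (log2 fold change 1.18 ± 0.15 (SE), edgeR adjusted p = 0.042). The call held without Vkine replicate 1 and was lost without any other of the 6 samples, EV replicate 1, 2 or 3 or Vkine replicate 2 or 3 (log2 fold change 1.09 to 1.23, edgeR adjusted p from 0.0899 to 0.309). H2-Q6 had 198, 101 and 134 CPM in Vkine samples and 69.2, 68.6 and 78.6 CPM in EV samples. It did not overlap and did not pass (log2 fold change 1.0 ± 0.22 (SE), edgeR adjusted p = 0.24), with the highest value in Vkine replicate 1, the library with the most mitochondrial counts. DESeq2 called it (log2 fold change 1.01, adjusted p 0.0077), and with no low-count filter edgeR called both H2-Q6 and Nlrc5. Nlrc5 had 75.0, 61.2 and 59.0 CPM in Vkine samples and 45.6, 34.7 and 47.4 CPM in EV samples (log2 fold change 0.61 ± 0.17 (SE), edgeR adjusted p = 0.27).

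The abundant members did not pass. H2-K1 had 1624, 1623 and 1701 CPM in Vkine samples and 1323, 1439 and 1497 CPM in EV samples (log2 fold change 0.22 ± 0.16 (SE), edgeR adjusted p = 0.61). B2m had 1937, 2450.2 and 2051 CPM in Vkine samples and 1939.8, 1608 and 1973 CPM in EV samples, with overlap (log2 fold change 0.22 ± 0.18 (SE), edgeR adjusted p = 0.66). H2-D1 had 1685, 2269 and 2346 CPM in Vkine samples and 1711, 2089.5 and 1926 CPM in EV samples, also with overlap (log2 fold change 0.14 ± 0.19 (SE), edgeR adjusted p = 0.81). Of the loading genes, Tap1 had 186, 143 and 151 CPM in Vkine samples and 103, 102 and 126 CPM in EV samples, without overlap (log2 fold change 0.54 ± 0.16 (SE), edgeR adjusted p = 0.29). Psmb8 had 118, 96.6 and 92.3 CPM in Vkine samples and 70.6, 65.4 and 74.8 CPM in EV samples, again without overlap (log2 fold change 0.54 ± 0.15 (SE), edgeR adjusted p = 0.27). Neither passed, and in MutuDC without LPS both were lower in Vkine. Calr, the chaperone, varied widely among Vkine samples, with 279.8, 718 and 518 CPM against 478, 518 and 491 CPM in EV samples (0.03), and its low value belongs to replicate 1.

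The other members that did not overlap were H2-T10 (0.51), H2-T22 (0.36), H2-T23 (0.48), Psmb9 (0.42), Psme1 (0.24) and Lnpep (0.41), as log2 fold changes. The remaining members were H2-Q4 (0.51), H2-Q10 (1.01), H2-T24 (0.43), H2-M3 (0.27), H2-M2 (-0.02), Psmb10 (0.20), Psme2 (0.26), Tap2 (0.12), Tapbp (0.16), Tapbpl (-0.16), Erap1 (-0.02), Canx (-0.08), Pdia3 (-0.18), Sec61a1 (-0.01) and Sec22b (0.07). Their SEs ran from 0.14 for Psmb10 to 1.10 for H2-M2, so a difference of that order could not be told from the spread between samples. Each immunoproteasome subunit can be set against the constitutive subunit it replaces. Psmb8 over Psmb5 (FPKM ratio) was 0.434 ± 0.0501 in Vkine samples and 0.277 ± 0.0143 in EV samples (SD, n = 3 each), without overlap. Psmb9 over Psmb6 was 0.265 ± 0.0388 in Vkine samples and 0.188 ± 0.0333 in EV samples, also without overlap, and Psmb10 over Psmb7 was 5.67 ± 1.61 in Vkine samples and 3.82 ± 0.479 in EV samples, with overlap. In MutuDC without LPS, Psmb8 over Psmb5 was lower in Vkine cells, at 1.67 ± 0.0379 (n = 3) against 2.11 ± 0.0226 in EV cells (n = 2). Psmb9 over Psmb6 was higher there, at 1.98 ± 0.0294 in Vkine cells and 1.77 ± 0.0657 in EV cells, and so was Psmb10 over Psmb7, at 3.13 to 3.53 in Vkine cells and 2.598 and 2.803 in the 2 EV samples. None of the 3 ratios overlapped. With LPS, Psmb8 over Psmb5 (2.17 ± 0.0373 in Vkine cells and 2.52 ± 0.182 in EV cells) and Psmb9 over Psmb6 (1.81 ± 0.0176 in Vkine cells and 2.14 ± 0.109 in EV cells) were lower in every Vkine sample, and Psmb10 over Psmb7 overlapped (3.09 ± 0.145 in Vkine cells and 3.31 ± 0.332 in EV cells). No test was run on these ratios.

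**Figure D5:**
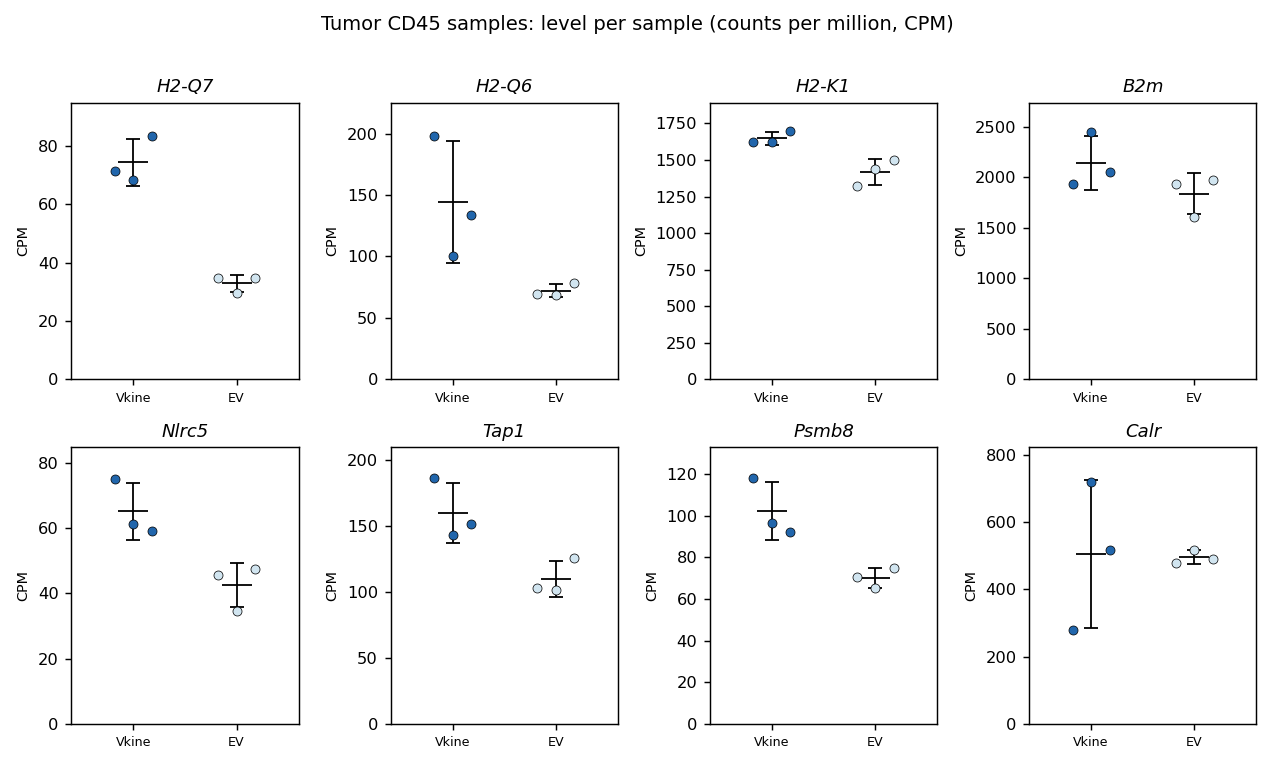
Level of 8 class I presentation genes in each tumor CD45 sample, in CPM (vertical axis, from 0), by group (horizontal axis); points are samples, the long bar is the mean and the whiskers are 1 SD. H2-Q7, at 68.3 to 83.6 CPM in Vkine and 29.6 to 34.7 CPM in EV, is the 1 gene that passed; H2-Q6, H2-K1, Nlrc5, Tap1 and Psmb8 do not overlap, and B2m and Calr do.

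Per length, the order of the members in tumor CD45 samples was led by B2m, with 2474 ± 314 FPKM in Vkine and 2107 ± 222 in EV, followed by H2-D1 (807 ± 140.5 in Vkine and 729 ± 74.3 in EV) and H2-K1 (627 ± 17.8 in Vkine and 536 ± 32.3 in EV), as mean ± SD of 3 samples each. In both groups the means of these 3 genes differed by more than 1 SD. Calr (174 ± 75.8 in Vkine and 169.6 ± 7.57 in EV) and Pdia3 (159 ± 38.5 in Vkine and 178 ± 3.82 in EV) came next, and in Vkine they were within their SDs of each other, while in EV their means differed by more than 1 SD. Tap1 (29.0 ± 4.07 in Vkine and 19.8 ± 2.35 in EV) and Tap2 (25.1 ± 4.55 in Vkine and 22.98 ± 1.19 in EV) lay far below, and Nlrc5 (7.59 ± 0.992 in Vkine and 4.93 ± 0.772 in EV) lower still. H2-Q7 (17.3 ± 1.88 in Vkine and 7.61 ± 0.646 in EV) was the less abundant of the Qa-2 pair, with H2-Q6 at 68.5 ± 23.4 FPKM in Vkine and 34.1 ± 2.46 in EV. H2-Q1 and H2-Q2 had under 1 CPM in every library of both sets, and H2-M2 was under 1 CPM in all MutuDC libraries.

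Close relatives in this family can share reads. Of the 50-base stretches in GENCODE M21 transcripts, 35% of H2-Q6, 26.5% of H2-Q7, 36.4% of H2-Q4, 50.4% of H2-T10 and 53.5% of H2-T22 occurred in another gene as well, against 9.63% of H2-K1, 12.8% of H2-D1, 3.33% of Tap1, 0.338% of Nlrc5 and 0% of B2m. Psme2 (28.3%), Tapbp (23.2%) and H2-Q10 (19.1%) also shared stretches with other genes. Values of single genes are uncertain to that extent. With the counts of H2-Q6 and H2-Q7 summed, the log2 fold change for Vkine against EV was 1.30 ± 0.09 in MutuDC without LPS and 0.21 ± 0.07 with LPS (SE, edgeR adjusted p = 1.5e-08 and 0.024). For LPS the sum rose by 1.93 ± 0.09 in EV cells and by 0.83 ± 0.07 in Vkine cells (edgeR adjusted p = 2.2e-10 and 1.3e-07). In tumor CD45 samples the sum was at 1.06 ± 0.18 and did not pass (edgeR adjusted p = 0.18), so the single call there does not hold for the pair.

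Other genes of the pathway were read from lists of regulators and neighbouring steps. The shares of all genes tested that were called are set beside the counts. The constitutive proteasome is the barrel in which the immunoproteasome subunits are exchanged. In MutuDC without LPS, 12 of 34 subunit genes fell with Vkine (35.3%, against 18.3% of all genes) and 22 did not pass (median -0.21). With LPS 10 rose (29.4%, against 22.8% of all genes) and 2 fell, where 19.2% of all genes did (median 0.10). Psmb7, replaced by Psmb10 in the immunoproteasome, was at -0.64 ± 0.09 without LPS and 0.60 ± 0.08 with LPS (log2 ± SE, edgeR adjusted p = 5.4e-05 and 3.2e-05). Psmb5 (-0.40 and 0.44) and Psmb6 (-0.39 and 0.26) passed in both too. LPS raised 26 of the 34 in Vkine cells (27.6% of all genes) and 7 in EV cells (17.2% of all genes). In tumor CD45 samples the median was -0.12 and 3 of 34 were positive. edgeR called 0 of these 34, with 2 lower at an unadjusted p under 0.05 (5% of all genes).

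Of 16 transcription factors that act on class I genes, 6 rose and 3 fell with Vkine without LPS (median -0.06), and 6 rose and 3 fell with LPS (median 0.10). The share that fell, 18.8%, was near that of all genes, 18.3% without LPS and 19.2% with it, and the share that rose was 37.5%, against 16.9% and 22.8% of all genes. Irf1, an interferon-induced activator known to act on the shared TAP1-PSMB9 promoter in human cells, fell without LPS (log2 fold change -1.17 ± 0.08 (SE), edgeR adjusted p = 3.3e-08) and rose with LPS (log2 fold change 0.33 ± 0.07 (SE), edgeR adjusted p = 0.0019). LPS raised it in Vkine cells (1.22 ± 0.08) and lowered it in EV cells (-0.29 ± 0.08). Its interaction was 1.51 ± 0.11 (edgeR adjusted p = 4e-08). Irf9, 1 of the 6 factors that rose without LPS, was at 0.96 ± 0.08 there (log2 ± SE, edgeR adjusted p = 2.6e-07). The part of these factors in the class I values was not tested. Nfkb1, an NF-kB subunit, did not pass without LPS (-0.01) and rose with it (log2 fold change 0.74 ± 0.06 (SE), edgeR adjusted p = 8.4e-08).

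Of 7 interferon receptor chains and their kinases, 5 rose and 1 fell with Vkine without LPS, and 4 rose and 1 fell with LPS, with medians of 0.23 and 0.18, where 16.9% of all genes rose without LPS and 22.8% with it. Tyk2, a kinase of the type I interferon receptor, rose with LPS (log2 fold change 0.52 ± 0.07 (SE), edgeR adjusted p = 2e-05). Of 20 type I interferon effector genes, 14 rose and 1 fell with Vkine without LPS (median log2 fold change 1.75), and 5 rose and 1 fell with LPS (median 0.15). The share that rose was 70% without LPS, against 16.9% of all genes, and 25% with LPS, near the 22.8% of all genes. Usp18, which restrains interferon signalling, rose in both (1.65 ± 0.10 and 0.64 ± 0.08, edgeR adjusted p = 6e-09 and 7.7e-06). LPS raised 18 of the 20 in EV cells (17.2% of all genes) and all 20 in Vkine cells (27.6% of all genes). In tumor CD45 samples all 20 were positive (median 0.75), and edgeR called 0 of them, with 16 higher at an unadjusted p under 0.05 (7.02% of all genes). Of 10 MHC class II genes tested, 2 rose and 4 fell with Vkine without LPS (median -0.20), and 3 rose and 1 fell with LPS (median 0.07). With 16.9% of all genes higher and 18.3% lower without LPS, and 22.8% and 19.2% with it, most of these counts were near the shares of all genes. H2-DMb1, a chain of the class II peptide editor, fell without LPS (log2 fold change -0.61 ± 0.09 (SE), edgeR adjusted p = 5.5e-05), and H2-Eb1, a class II chain, rose with LPS (log2 fold change 0.37 ± 0.09 (SE), edgeR adjusted p = 0.0038). In tumor CD45 samples 11 of 12 class II genes were positive (median 0.64), with 0 called by edgeR and 6 higher at an unadjusted p under 0.05.

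Among class I loci outside the 32, H2-K2 and H2-Q5 rose in the comparisons named here. H2-K2 rose with Vkine without LPS (log2 fold change 1.69 ± 0.21 (SE), edgeR adjusted p = 1.4e-05) and with LPS in EV cells (log2 fold change 1.93 ± 0.20 (SE), edgeR adjusted p = 3.1e-06), and H2-Q5 did the same (1.16 ± 0.15 and 1.49 ± 0.15, edgeR adjusted p = 2.8e-05 and 1.9e-06). Neither passed for Vkine with LPS, at -0.10 and -0.13. H2-M5 also rose with Vkine without LPS (log2 fold change 0.46 ± 0.17 (SE), edgeR adjusted p = 0.044), where 16.9% of all genes rose. H2-Q5 shared 50-base stretches with H2-Q7, so its values may not be separate from that gene's. Of 8 class I-like molecules tested, 2 rose and 1 fell with Vkine without LPS and 1 rose and 2 fell with LPS, near the shares of all genes (16.9% higher and 18.3% lower without LPS, 22.8% and 19.2% with LPS). Cd1d1, which presents lipids to natural killer T cells, rose without LPS (log2 fold change 1.09 ± 0.21 (SE), edgeR adjusted p = 0.00079). Of 12 other genes of cross-presentation, 3 rose and 3 fell with Vkine without LPS, near those shares, and 6 rose (50%) and 2 fell with LPS. Rab43, a small GTPase of this route in mouse CD8a+ dendritic cells, was at -0.53 ± 0.13 without LPS and 1.45 ± 0.12 with LPS (edgeR adjusted p = 0.0041 and 1.9e-07). Of 10 genes of glycoprotein folding in the endoplasmic reticulum, 5 fell with Vkine without LPS (50%, against 18.3% of all genes), and 3 rose and 1 fell with LPS (22.8% and 19.2% of all genes). Mogs, the glucosidase that trims new glycans, was at -0.76 ± 0.09 without LPS and 0.72 ± 0.08 with LPS (edgeR adjusted p = 7e-06 and 4.7e-06).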

How the data were processed

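RNA of 17 mouse libraries (6 tumor CD45, 11 MutuDC) was sequenced. Per the labels' protocols, RNA was purified with a QIAGEN RNeasy kit and libraries were made with the NEBNext Ultra RNA kit. The submitters' processing notes name fastp, STAR, featureCounts 1.5.0-p3, DESeq2 1.20.0 and the build GRCm38, with no role or order. The authors deposited raw read counts per gene, and the deposited FPKM values are scaled by gene length and library size, per the file headers; the gene length behind them is not given in the sources used here. All columns were matched to samples by their titles.

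Counts were filtered with filterByExpr, scaled by TMM and tested with edgeR 4.0.16 (R 4.3.3), using the robust quasi-likelihood F test. The CD45 set (14006 genes) and MutuDC (13357 genes, 1 model over 4 groups) were fitted apart, with 6 comparisons in all. p-values were adjusted by Benjamini-Hochberg over all genes tested, and a call needs an adjusted p under 0.05. CPM are computed from the counts with TMM factors. Log2 CPM values, behind the principal components and the check of same-numbered replicates, use a prior count of 2. FPKM served for levels and ratios per length and, with limma 3.58.1 on log2(FPKM + 1) or log2(FPKM + 0.1), as alternatives. Other alternatives were DESeq2 1.42.0, its size factors, no filter, a minimum of 1 CPM, no robust estimation, a replicate block, H2-Q6 and H2-Q7 summed, the 2 compared groups alone and each library left out. Counting intervals (95%) and the spread of ratios were computed in Python 3.11.15 with scipy 1.17.1.

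The members and pathway lists were chosen with earlier results of these data known, so no list test was run and counts are set beside the share of all genes called. Values in every sample are given for at most 12 called members per comparison, plus B2m, H2-K1, H2-D1, H2-Q6, H2-Q7 and Nlrc5; up to 3 genes of each pathway list with the smallest p in a comparison could be named, plus Irf1, Psmb5, Psmb6 and Psmb7; another gene that this rule names is not reported here. 6 listed H2 loci (H2-L, H2-Q8, H2-Q9, H2-T9, H2-T26 and H2-T27) matched no row. Library totals were 13814620 to 21263321 counts. Replicates of a group differed by more than counting noise.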

Additional observations from a re-analysis of the deposited data

Results flagged for a closer look

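21 class I presentation genes were marked because the effect of Vkine differed with and without LPS in MutuDC by the interaction test (edgeR adjusted p under 0.05 over all genes tested). By the same test 25.5% of all 13357 genes had a positive interaction and 23.7% a negative one, so such a difference was common. Values are the log2 fold change of Vkine against EV with LPS minus that without LPS. They were positive for Tap1 (1.02), Tapbp (1.01), Psmb8 (0.97), Tapbpl (0.89), Psmb10 (0.81), Tap2 (0.65), Sec61a1 (0.61), Calr (0.50) and H2-D1 (0.49). They were negative for H2-Q10 (-5.83), H2-Q6 (-1.23), B2m (-0.95), H2-Q4 (-0.92), H2-Q7 (-0.88), H2-T10 (-0.79), H2-M3 (-0.78), Nlrc5 (-0.65), Psme1 (-0.45), H2-K1 (-0.39), Canx (-0.27) and Pdia3 (-0.26). H2-Q10 rests on 61, 45 and 62 counts in Vkine cells and 2 and 2 counts in EV cells without LPS. No group here has 4 or more samples, so no single sample was checked for standing apart from its group.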

How the results depend on the processing

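No member called in the fit described, or in an alternative, changed direction between them. Values of members not called in the fit changed sign in 22 of 433 cases in tumor CD45 samples and, in MutuDC, in 15 of 294 for Vkine without LPS, 16 of 293 with LPS, 10 of 147 for LPS in Vkine cells, 11 of 231 for LPS in EV cells and 12 of 160 for the interaction. In MutuDC, the calls of Vkine against EV without LPS were kept in 312 of 313 values over 21 alternatives, and in 302 of 314 with LPS. LPS calls were kept in 357 of 376 values in EV cells and 436 of 460 in Vkine cells, and interaction calls in 402 of 418. Members not called in the fit gained a call in 25 of 294 values for Vkine without LPS and 10 of 293 with LPS. For LPS they gained one in 8 of 231 values in EV cells and 4 of 147 in Vkine cells, and for the interaction in 5 of 160. The gains without LPS were in H2-T10, Psmb9, Psmb10, Psme1 and Lnpep, so their lack of a call depends on the processing. Counts of members called moved by over 1.5 times as follows. In tumor CD45 samples, 1 member was higher in the fit described. No low-count filter gave 3 and DESeq2 gave 2. No robust estimation, both FPKM pseudocounts, the replicate block and the summed H2-Q6 and H2-Q7 each gave 0, and leaving out a library gave 0 to 1. In MutuDC with LPS, leaving out a library gave 8 to 13 members higher and 4 to 9 lower with Vkine. For LPS in Vkine cells it gave 1 to 3 lower. A lone EV sample left by such a step is assumed to vary like the other groups. The cause of these changes was not tested.

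Same-numbered replicates did not deviate together (r -0.101 to 0.0962 in MutuDC, -0.0495 to 0.0357 in CD45). Deviations from the mean of 2 or 3 samples cancel out within a group, so this check cannot tell whether such replicates share more than a number. In CD45 only EV replicate 1 with Vkine replicate 1 and EV replicate 2 with Vkine replicate 2 were paired. EV replicate 3 and Vkine replicate 3 each formed a block of their own. With the replicate block the log2 fold change of H2-Q7 in tumor CD45 samples was 1.13 (edgeR adjusted p = 0.38), and the block also ended the calls of Tapbpl and Pdia3 for LPS in EV cells, H2-T23 and Canx for LPS in Vkine cells, and Canx and Pdia3 for the interaction. With 2 EV libraries without LPS and 3 samples elsewhere, small changes could not be told from the spread between samples.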
